A study of Mus musculus with 12 samples.

Results

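Cells that held SOX2 while the WNT pathway was switched on were compared with epiblast-like cells that had received no WNT signal. The comparison took 6 of the 12 RNA-seq libraries of the series, namely the 3 of SOX2-ON and the 3 of EpiLC, chosen by their labels alone. Of 24736 genes in the table, 14196 passed a filter on low counts over all 12 libraries and were tested. Both groups were made from mouse embryonic stem cells grown on feeder cells in serum with LIF, and both were cultured for 72 h in FGF at 10 ng/ml with LGK974 at 5 µM, which blocks the secretion of WNT ligands. EpiLC (epiblast-like cells) was the wild type with no further agent named in its labels. SOX2-ON was the SOX2 TetON line, genotype Sox2-/-, which received CHIR99021 from day 2 to day 3 and was kept in doxycycline at 1 µg/ml throughout. The comparison addresses which transcripts differ between these groups, whose Sox2 transcript levels were close.

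Several features limit what the pair of groups can show. In the SOX2 TetON line both endogenous copies of Sox2 were inactivated, and SOX2 came from a doxycycline-dependent transgene in the Hprt locus, in a clone of the XY HM1 TetON line that carries rtTA at Rosa26. The study used that parental line as its wild type. Cell line, doxycycline and CHIR99021 differed together between the groups, so that their shares in any difference cannot be told apart. The labels call the replicates biological, and the methods of the study speak of independent experiments, so that p-values measure the spread between such replicates. Totals of the 6 libraries ran from 13387030 to 20915674 expected counts.

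CHIR99021 inhibits GSK3, the kinase that marks β-catenin for destruction, and thereby lets β-catenin join TCF/LEF factors at WNT target genes, among them feedback inhibitors such as Axin2, Nkd1, Dkk1 and Notum. SOX2 is an HMG-box factor of pluripotent and neural cells. Naive pluripotent cells express factors such as Nanog, Esrrb and Nr5a2, and on their way to the formative state of EpiLC they lose these and gain Otx2, Pou3f1 (also called OCT6) and Fgf5. A WNT signal to the caudal epiblast of the embryo turns on T (Brachyury), Cdx and Hox genes.

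The oligonucleotides of the study are shown because they define the line, one aimed at the endogenous gene and one that protects the transgene from it. The 22-base guide oligo carries in capitals the run that matches the Sox2 coding sequence, at coding bases 34 to 52 (chr3:34650449-34650467, plus strand, GRCm38, an exonic coding stretch of the GENCODE annotation). The oligo used to protect the transgene spans coding bases 40 to 66 (chr3:34650455-34650481) and carries the substitution G54A, counted from the first base of the coding sequence, with the changed base in capitals. The coding sequence below runs from base 34 to base 66 with the same position in capitals.
guide oligo: caCCGGGCCCGCAGCAAGCTTg
transgene oligo: ccgcagcaagcttcAgggggcggcggc
Sox2 coding sequence: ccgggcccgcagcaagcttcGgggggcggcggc

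Sox2 (chr3:34649995-34652461, GRCm38.p6) was close to its EpiLC level in SOX2-ON. Its level was 171, 119 and 121 TPM in the 3 EpiLC libraries and 215, 173 and 174 TPM in the 3 SOX2-ON libraries. In TPM all SOX2-ON values lay above all EpiLC values, with EpiLC replicate 1 only just below the lowest SOX2-ON library. On counts scaled for library size the groups were not separated. The log2 fold change was 0.42 (SE 0.19), with an adjusted p of 0.0711 by edgeR's quasi-likelihood test after Benjamini-Hochberg adjustment, which missed the threshold of 0.05. The call was not stable, since without EpiLC replicate 1 the log2 fold change was 0.63 with an adjusted p of 0.0158. Sox2 was also called higher with limma-voom (adjusted p 0.0286). In edgeR's test it was called with the 6 libraries alone (adjusted p 0.0329) and with the replicate number as a block (0.000248). The table has a single row for Sox2, which does not separate transcripts of the transgene from those of the inactivated copies. CEpiLC (wild type with CHIR99021) and SOX2-OFF (the TetON line with CHIR99021, with doxycycline withdrawn for the differentiation) had mean levels of 10.4 and 16.5 TPM. Hprt (chrX:52988078-53021660), the locus that received the transgene, was at 0.55, 1.01 and 1.21 TPM in EpiLC and 21.1, 23.3 and 15.7 TPM in SOX2-ON, a log2 fold change of 4.46 (SE 0.27).

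At that similar Sox2 level the transcriptomes differed widely. Of the genes tested, 8483 (59.8%) had an adjusted p no higher than 0.05 and are termed called, of which 4357 (30.7% of the genes tested) were higher in SOX2-ON and 4126 (29.1%) were lower. Changes of more than 1 on the log2 scale were called for 1364 genes (9.61%) in the upward direction and for 1323 (9.32%) in the downward direction. The 3 values of one group lay wholly outside those of the other for 9381 genes (66.1%). The median log2 fold change of all genes tested was 0.015, so that lists can be read against a centre near 0. With called genes so frequent, a list whose members are called at about this rate does not stand apart from the rest. The counts of each list below are to be read against these shares of 30.7% higher and 29.1% lower. A gene nearly absent in EpiLC that passed the filter through another group could scarcely be called lower. For lists with many such genes, the direction of the calls and the median are no independent result. Some genes are in several lists, so the lists are not separate results. In bulk libraries such as these, fewer cells of a type and less RNA per cell cannot be told apart.

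**Figure D1:**
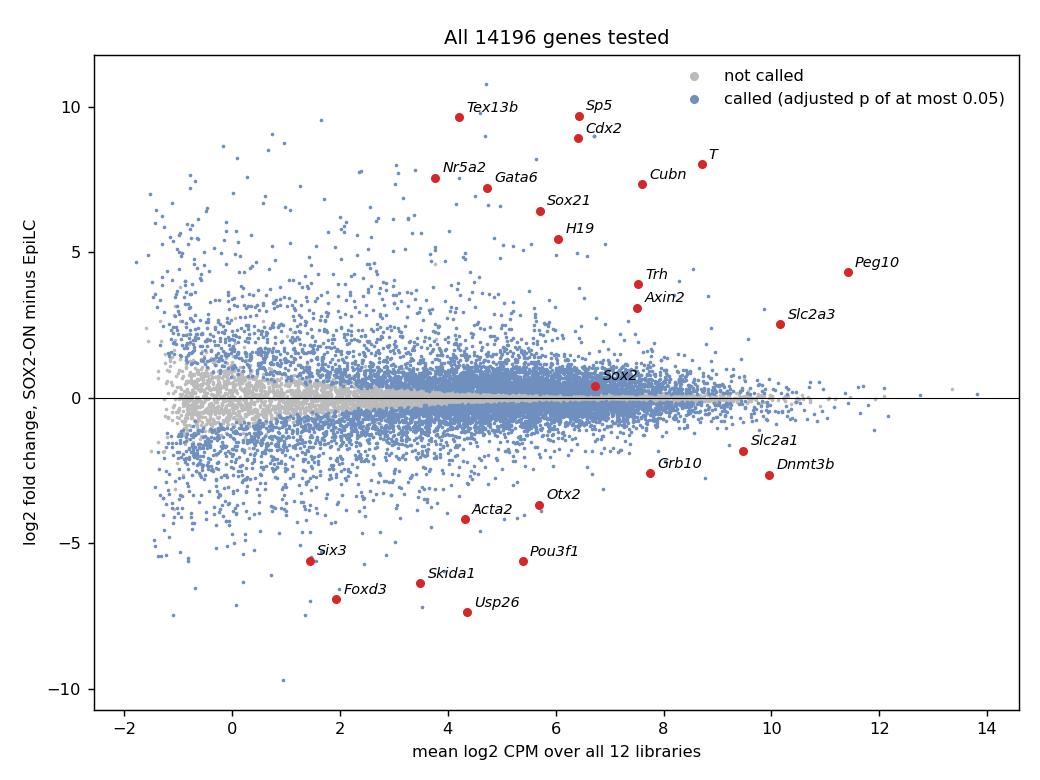
Log2 fold change of SOX2-ON over EpiLC (vertical axis) against mean log2 CPM (horizontal axis) for the 14196 genes tested, with called genes marked and the genes the text turns on named. Sp5, T and Nr5a2 lie far above 0 and Skida1, Otx2 and Pou3f1 far below it, while Sox2 lies at 0.42. Fitted values of genes with few counts in one group depend on the prior count of the fit.

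Sp5 (chr2:70474923-70477726), a zinc-finger factor of the SP family that is a direct β-catenin target, was far higher in SOX2-ON. Sp5 had 1, 1 and 1 expected counts in the EpiLC libraries and 1076, 713 and 1023 in the SOX2-ON libraries. The pooled ratio per effective library size was 933 (95% counting interval 319 to 4525), an interval that covers counting error only, and the adjusted p was 1.14e-08 in edgeR's quasi-likelihood test. In TPM the SOX2-ON libraries held 56.9, 40.5 and 59.1, against means of 162 in CEpiLC and 122 in SOX2-OFF. Cdx1, a caudal homeobox gene that answers to WNT, was at 0 counts in every EpiLC library and at 17.9, 11.96 and 15.9 TPM in SOX2-ON, at least 71.7-fold higher when the EpiLC libraries are set at a floor of 3 counts each.

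The promoters of Sp5 and of the secreted WNT inhibitor Dkk1 are printed because both genes went from near absence to a clear level and both carry the letters to which TCF/LEF factors are known to bind. Each is the stretch of 250 bases before the start of the RefSeq gene in GRCm38.p6, read in the direction of the gene, at chr2:70474673-70474922 on the plus strand for Sp5 and at chr19:30549497-30549746 on the minus strand for Dkk1. Capitals mark CTTTGA or its reverse complement TCAAAG.
Sp5 promoter: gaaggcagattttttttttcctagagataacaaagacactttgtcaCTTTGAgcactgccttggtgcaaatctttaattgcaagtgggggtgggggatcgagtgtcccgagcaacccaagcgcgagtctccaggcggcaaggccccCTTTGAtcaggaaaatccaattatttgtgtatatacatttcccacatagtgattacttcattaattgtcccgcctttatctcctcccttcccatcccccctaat
Dkk1 promoter: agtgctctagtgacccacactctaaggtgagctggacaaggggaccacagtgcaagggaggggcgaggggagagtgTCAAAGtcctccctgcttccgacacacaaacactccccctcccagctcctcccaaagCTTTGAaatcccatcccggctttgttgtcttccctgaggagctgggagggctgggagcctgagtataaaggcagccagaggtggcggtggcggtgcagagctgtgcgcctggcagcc

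The motif begins 204 and 104 bases before the start of Sp5, and 174 and 117 bases before the start of Dkk1. The related letters CTTTGT or ACAAAG, which the HMG boxes of SOX factors recognise, do not overlap with these and begin 221 and 212 bases before Sp5 and 98 bases before Dkk1. CTTTGA was found on either strand in 4544 of 32851 RefSeq promoters of this length (13.8%), and CTTTGT in 5408 (16.5%). By gene, 4280 of 27025 held CTTTGA (15.8%), as did 5 of the 13 genes of the WNT list that had an entry (Dkk1, Lef1, Sp5, Sp8 and Tnfrsf19). A match describes the letters only.

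Of 20 tested genes of WNT feedback and target function, 10 were called higher and 2 lower, against 30.7% and 29.1% of all genes tested, with a median log2 fold change of 0.85. Axin2, the scaffold that limits β-catenin, rose from 9.86, 9.86 and 12.8 TPM to 96.1, 87.6 and 97.7 TPM (log2 fold change 3.09, SE 0.16, adjusted p 1.26e-08 in edgeR's test). The values of Axin2 did not overlap between the groups, and those of SOX2-ON lay near the SOX2-OFF mean of 93.6 TPM and below the CEpiLC mean of 136 TPM. Nkd1, an inhibitor of Dishevelled, rose by 3.07 on the log2 scale, the palmitoleoyl-protein carboxylesterase gene Notum by 3.11 and Tnfrsf19 by 2.54. Dkk1 was at 1, 2 and 1 counts in EpiLC and 202, 251 and 376 in SOX2-ON, a pooled ratio of 206 (95% counting interval 80.2 to 759). Its relative Dkk4 was at 0 in every EpiLC library and at least 30.7-fold higher in SOX2-ON. Sp8, a second SP factor, rose from 0.62, 0.29 and 0.26 TPM to 16.2, 17.0 and 14.0 TPM, a log2 fold change of 5.22.

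Other members of the WNT list did not take part to this degree. Lef1 was at 31.1, 26.9 and 37.5 TPM in EpiLC and 41.0, 39.5 and 36.3 TPM in SOX2-ON (adjusted p 0.15 in edgeR's test), whereas its mean was 106 TPM in CEpiLC. Nkd2 fell by 0.71 on the log2 scale. Tcf7 was called lower at -0.20 (adjusted p 0.0315 in edgeR's test), but it lies on chromosome 11, whose genes were lower as a whole in SOX2-ON. With the median shift of its chromosome removed, Tcf7 was called higher, at 0.33 (adjusted p 0.00184 in edgeR's test). As measured, it was not called without SOX2-ON replicate 2 or 3 or without EpiLC replicate 2 or 3 (adjusted p from 0.0725 to 0.154 in edgeR's test). The ligase genes Rnf43 and Znrf3, which remove WNT receptors from the cell surface, and the DKK receptor gene Kremen1 lie on the same chromosome and were not called, but with the shift removed they were called higher, at 0.50, 0.72 and 0.70. Counted that way, and with Tcf7 among them, 14 members of the WNT list were higher and 1 lower. Among 12 genes of TCF/LEF factors and partners of β-catenin, 2 were higher and 4 lower, with a median of 0.05. Tcf7l1, the TCF family repressor, fell from 79.8, 85.3 and 75.8 TPM to 52.5, 55.9 and 47.4 TPM, and the β-catenin gene Ctnnb1 fell by 0.44 on the log2 scale.

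WNT ligand genes were mostly higher, with 7 of 11 tested members called higher, 1 called lower and a median of 2.39. Wnt3, the ligand that starts the primitive streak, rose from 0.7, 0.66 and 0.95 TPM to 6.26, 6.05 and 7.55 TPM. Wnt5a and Wnt5b, ligands of the non-canonical branch, rose by 3.46 and 3.66 on the log2 scale. Wnt6 had 1, 0 and 2 counts in EpiLC and 126, 96 and 117 in SOX2-ON, a pooled ratio of 112 (95% counting interval 38.1 to 548). Wnt4 was the member that fell, by 0.97. LGK974, present in both cultures, blocks the secretion of the ligands, and its effect on their transcripts was not tested.

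**Figure D2:**
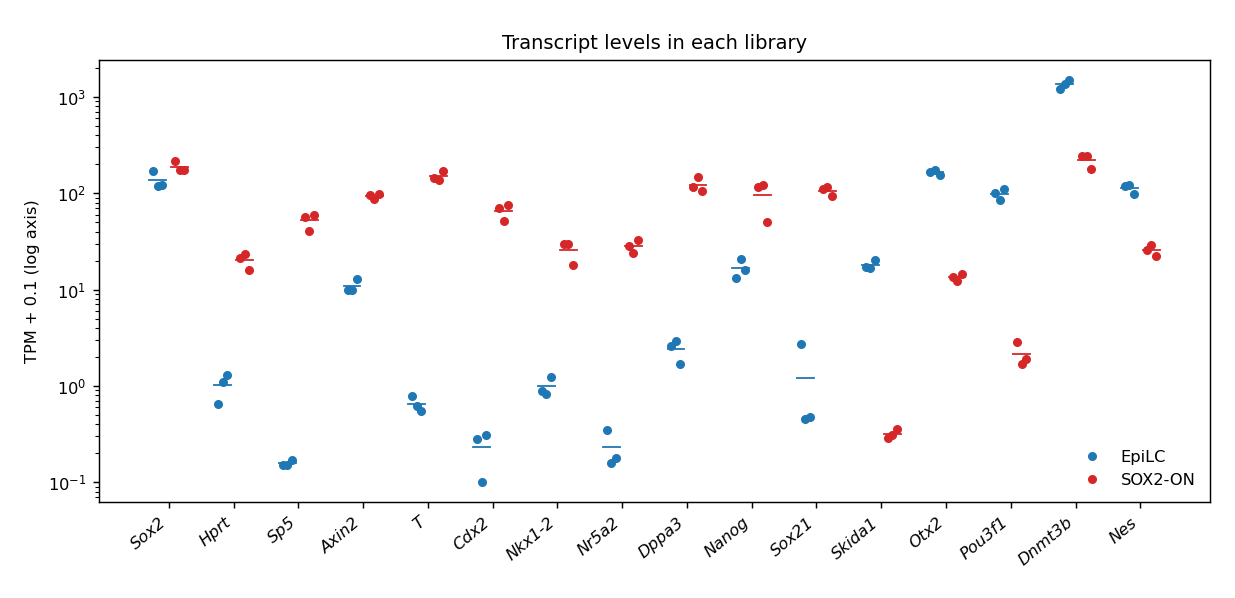
Level in TPM plus 0.1 on a log axis for 16 genes in each of the 6 libraries, with a bar at the mean of each group. Points of EpiLC and SOX2-ON lie next to each other for Sox2, while Sp5, T, Cdx2, Nr5a2, Dppa3 and Sox21 are high in SOX2-ON and Skida1, Otx2 and Pou3f1 are high in EpiLC.

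Caudal genes were mostly higher in SOX2-ON. Of 16 tested caudal epiblast genes, 12 were called higher and 2 lower, with a median log2 fold change of 4.10. Several members were nearly absent in EpiLC and could pass the filter through another group, so they could scarcely be called lower. The direction of these calls and the median are therefore no independent result. Cdx2, a homeobox regulator of posterior identity, was at 0.18, 0 and 0.21 TPM in EpiLC and 70.3, 51.8 and 74.9 TPM in SOX2-ON, a log2 fold change of 8.93 with an SE of 0.47 and an adjusted p of 1.08e-08 in edgeR's test. Nkx1-2, a marker of the caudal lateral epiblast, was at 0.79, 0.73 and 1.14 TPM and 29.3, 29.6 and 18.0 TPM, a log2 fold change of 4.86. Neither gene overlapped between the groups. In CEpiLC the means were 225 TPM for Cdx2 and 344 TPM for Nkx1-2.

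Cdx4, with 0, 1 and 1 counts in EpiLC, had 128, 122 and 141 counts in SOX2-ON, a pooled ratio of 194 (95% counting interval 53.5 to 1612). The homeobox gene Evx1, with 1, 1 and 1 counts in EpiLC, had 364, 218 and 427 in SOX2-ON, a pooled ratio of 335 (95% counting interval 114 to 1625). Its divergent transcript Evx1os was at 0 in every EpiLC library and at least 36.6-fold higher in SOX2-ON. The homeobox gene Gbx2 rose from 7.69, 4.19 and 7.90 TPM to 75.2, 73.9 and 54.4 TPM, and Grsf1, which encodes an RNA-binding protein, from 96.4, 95.8 and 106 TPM to 403, 401 and 442 TPM. The 2 members that fell were Cyp26a1, the enzyme that breaks down retinoic acid, from 11.98, 13.1 and 3.68 TPM to 0.51, 0.41 and 1.18 TPM, and Greb1 with a log2 fold change of -0.63.

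T, the T-box factor of the primitive streak, was at 0.68, 0.52 and 0.45 TPM in EpiLC and 145, 138 and 172 TPM in SOX2-ON, a log2 fold change of 8.02 with an SE of 0.30 and an adjusted p of 1.23e-09 in edgeR's test. T was thus absent or nearly so in EpiLC and well expressed in all SOX2-ON libraries. The means of CEpiLC and SOX2-OFF were 711 and 809 TPM. Of 17 tested primitive streak genes, 8 were called higher and 2 lower, with a median of 1.65. The called members included Fgf8, a pooled ratio of 13.6 (95% counting interval 6.37 to 34.8), and Foxa2, a forkhead factor of anterior streak and endoderm, with a log2 fold change of 5.03.

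Mixl1 and Eomes, homeobox and T-box factors of the streak, were low in both groups. Mixl1 was at 0.81, 0.32 and 1.19 TPM in EpiLC and 3.55, 2.32 and 5.98 TPM in SOX2-ON, and Eomes at 1.04, 1.47 and 1.57 and 3.14, 3.36 and 3.55 TPM. Both passed the test with all libraries (log2 fold changes 2.38 and 1.29), but the call of Mixl1 was lost without SOX2-ON replicate 3, EpiLC replicate 1 or EpiLC replicate 2, and that of Eomes without either of SOX2-ON replicates 2 and 3 or EpiLC replicates 1 and 2. Over the fits tried, the highest adjusted p (limma-voom) was 0.175 for Mixl1 and 0.102 for Eomes. In SOX2-OFF the means were 160 and 45.9 TPM. Of the 2 streak genes that were lower, Lhx5 and the BMP antagonist Chrd, neither was called without SOX2-ON replicate 2 (adjusted p 0.114 and 0.054 in edgeR's test), and Lhx5 was not called without SOX2-ON replicate 1 (0.0941) or EpiLC replicate 1 (0.38) either.

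Few paraxial mesoderm genes were called, 3 higher and 2 lower of 15 tested, with a median of 0.97 (0.81 with genes at 0 counts set at their bound). Tbx6, the T-box factor that commits cells to paraxial mesoderm, was at 0.41, 0.38 and 0.37 TPM in EpiLC and 0.26, 0.5 and 0.36 TPM in SOX2-ON, against a mean of 40.2 TPM in CEpiLC. Msgn1, a bHLH factor of presomitic mesoderm, was at 0 in all EpiLC libraries and at 0.27, 1.49 and 0.91 TPM in SOX2-ON, or 1, 5 and 3 counts, too few for a fold against the floor of 3 counts per library, and its mean was 174 TPM in CEpiLC. Neither was called, though DESeq2 called Msgn1 (adjusted p 0.0161). Rspo3, a secreted amplifier of WNT signals, rose from 0.85, 0.7 and 1.13 TPM to 5.34, 7.40 and 6.74 TPM, a log2 fold change of 2.85. The number of members called higher depended on the fit, at 6 with the 6 libraries alone, with DESeq2 and with the replicate number as a block.

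Hox genes rose from near absence to low levels. Of 39 Hox genes in the table, 25 were tested, and 24 of these were called higher and 0 lower. Since a Hox gene could pass the filter through any of the 4 groups, the tested members are not all members. The summed level was lowest in EpiLC, so a gene admitted through another group could scarcely be called lower. The direction of the calls and the median are therefore no independent result. The median log2 fold change was 4.02 (3.95 with the gene at 0 counts set at its bound). Summed over the list, the level was 2.51, 2.81 and 3.39 TPM in EpiLC and 37.0, 41.1 and 67.7 TPM in SOX2-ON, against 325 to 750.5 TPM in CEpiLC. SOX2-ON replicate 3 held the highest SOX2-ON value for 21 of the 25 genes, and its part in the result was not tested beyond leaving it out, after which 18 Hox genes were called higher. Hoxb8, a trunk gene, rose from 0.15, 0.04 and 0.06 TPM to 3.40, 3.39 and 8.07 TPM, while its CEpiLC mean was 42.5 TPM. With the 6 libraries alone or a filter at a mean of 1 CPM, 14 Hox genes were called higher, and Hoxc11 and Hoxd12 were at 0 in all 6 libraries.

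**Figure D3:**
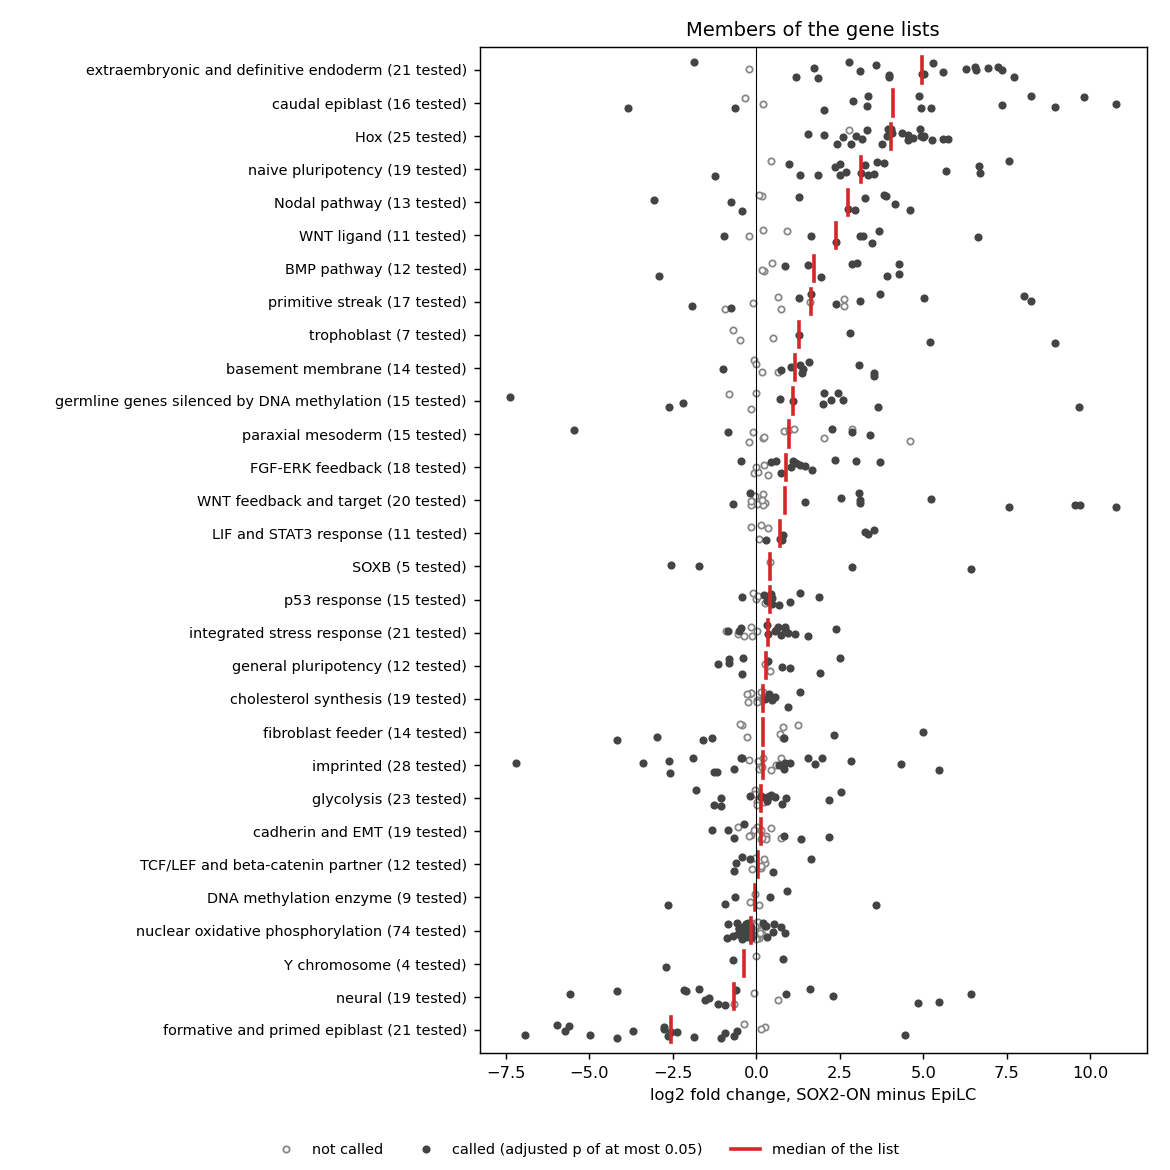
Log2 fold change of SOX2-ON over EpiLC for each tested member of the gene lists, with filled points for called genes, open points for genes not called and a red bar at the list median. Caudal, Hox, naive and endoderm genes lie mostly above 0 (medians 4.10, 4.02, 3.12 and 4.96), and formative genes mostly below it (median -2.57). Lists share members, such as Gbx2 of the caudal and naive lists, so their medians are not separate results.

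Naive pluripotency genes were higher in SOX2-ON, with 17 of 19 tested members called higher, 1 called lower and a median of 3.12. Nr5a2 (chr1:136842562-136960448), an orphan nuclear receptor that maintains Pou5f1 in early pluripotent cells, was at 0.25, 0.06 and 0.08 TPM in EpiLC and 28.2, 23.6 and 32.5 TPM in SOX2-ON, a log2 fold change of 7.57 with an SE of 0.27 and an adjusted p of 9.89e-10 in edgeR's test. Its means were 0.62 TPM in CEpiLC and 0.38 TPM in SOX2-OFF. Dppa3 (also called STELLA), a maternal factor that shields DNA from methylation, was at 2.49, 2.82 and 1.59 TPM and 117, 146 and 105 TPM, with means of 4 TPM in CEpiLC and 6.26 TPM in SOX2-OFF.

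The homeobox factor Nanog was at 13.0, 20.7 and 15.7 TPM in EpiLC and 116, 121 and 49.98 TPM in SOX2-ON, so that the groups did not overlap although SOX2-ON replicate 3 was below the other two. Its log2 fold change was 2.52 (SE 0.47), and 1.92 with the shift of chromosome 6 removed. Esrrb, another orphan nuclear receptor of naive cells, rose by 3.82 on the log2 scale, Klf4 by 3.52, Tfcp2l1 by 3.25 and Zfp42 (also called REX1) by 3.62. Tbx3 rose from 0.14, 0.1 and 0.3 TPM to 11.2, 14.7 and 27.9 TPM, with its highest value in SOX2-ON replicate 3. Tdh, the threonine dehydrogenase of mouse embryonic stem cells, rose from 20.2, 19.05 and 34.6 TPM to 229.9, 197 and 218 TPM, and its means were 26.5 TPM in CEpiLC and 18.8 TPM in SOX2-OFF.

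Fgf4 was the naive member called lower, at -1.24, and it lost the call without EpiLC replicate 2 (adjusted p 0.0643) or SOX2-ON replicate 3 (0.0719 in edgeR's test). Klf2, on chromosome 8, was called at 1.32, but removing the shift of that chromosome left 0.70 (adjusted p 0.07 in edgeR's test). Summed over the naive list, the level was 121, 126 and 151 TPM in EpiLC and 1032, 1029 and 987 TPM in SOX2-ON. Among 11 genes of the response to LIF, the cytokine that keeps mouse stem cells naive and that was not part of the differentiation medium as labelled, 7 were higher and 0 lower, with a median of 0.70. Its 3 members that are also in the naive list (Klf4, Tfcp2l1 and Gbx2) were its largest rises. Socs3, the feedback inhibitor of STAT3, was at 6.64, 8.30 and 5.58 TPM in EpiLC and 7.98, 7.03 and 8.03 TPM in SOX2-ON and was not called, or called higher at 0.66 with the shift of chromosome 11 removed.

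General pluripotency genes moved in both directions, 5 of 12 higher and 5 lower. Pou5f1 (also called OCT4) was at 813, 907 and 942 TPM in EpiLC and 1159.9, 1079.6 and 985 TPM in SOX2-ON, with a log2 fold change of 0.25 and an adjusted p of 0.0508 in edgeR's test. It was called in several other fits, among them that without SOX2-ON replicate 3 (adjusted p 0.0179). Dppa2 rose by 1.91 on the log2 scale, while Utf1 fell by 1.14 and Lin28a, which blocks let-7 maturation, fell by 0.82.

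Formative genes were lower, with 17 of 21 tested members called lower, 1 called higher and a median of -2.57. Otx2 (chr14:48656781-48667644), the homeobox factor that drives the exit to the formative state, was at 166, 176 and 153 TPM in EpiLC and 13.5, 12.1 and 14.4 TPM in SOX2-ON, a log2 fold change of -3.68 with an SE of 0.20 and an adjusted p of 1.62e-08 in edgeR's test. Pou3f1 was at 101, 85.7 and 109 TPM and 2.75, 1.57 and 1.79 TPM, a log2 fold change of -5.61. The groups were separated for both, and the means of Otx2 were 2.62 TPM in CEpiLC and 4.84 TPM in SOX2-OFF.

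Skida1 (chr2:18044087-18048449), a gene of the SKI/DACH domain family, was at 17.2, 16.6 and 20.3 TPM in EpiLC and 0.19, 0.21 and 0.26 TPM in SOX2-ON, a log2 fold change of -6.36 (SE 0.31, adjusted p 5.75e-09 in edgeR's test). Foxd3, a forkhead factor of the epiblast, fell from 11.9, 10.5 and 14.7 TPM to 0.05, 0.05 and 0.2 TPM. Fgf5 fell by 4.17 on the log2 scale, Spon1 by 5.96, Sez6 by 4.97 and Foxd4 by 5.72. The kinase gene Pim2 fell from 1240.3, 1255 and 1422 TPM to 225, 229 and 133 TPM. Fst, the activin antagonist follistatin, was the list member that rose, from 7.60, 4.43 and 4.94 TPM to 136, 129.6 and 121 TPM, with means of 587 TPM in CEpiLC and 410 TPM in SOX2-OFF.

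Neural genes were called lower for 10 and higher for 6 of 19 tested members, with a median of -0.66. With the chromosome shift removed 11 were lower and 6 higher, and the median was -1.27. Nes, the intermediate filament nestin, fell from 119.8, 120.4 and 98.5 TPM to 25.8, 28.7 and 22.4 TPM. Anterior neural factors that EpiLC expressed unevenly were low in SOX2-ON, with Hesx1 at 29.5, 15.1 and 3.57 TPM in EpiLC and 0.54, 0.58 and 1.64 TPM in SOX2-ON, and Six3 at 8.47, 5.16 and 0.91 and 0.06, 0.12 and 0.13 TPM. For both, EpiLC replicate 3 was the lowest of its group and still above every SOX2-ON library. Zic1, a zinc-finger factor of dorsal neural tissue, rose from 0.08, 0.09 and 0.35 TPM to 4.52, 5.02 and 4.45 TPM.

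The SOXB genes, relatives of Sox2, went separate ways. Sox21, a SOXB2 repressor, was at 2.60, 0.35 and 0.38 TPM in EpiLC and 109, 116 and 93.6 TPM in SOX2-ON, a log2 fold change of 6.43 with an SE of 0.41 and an adjusted p of 4.57e-08 in edgeR's test, with means of 0.547 TPM in CEpiLC and 1.08 TPM in SOX2-OFF. Sox14 rose from 0.24, 0.52 and 0.67 TPM to 3.92, 2.95 and 3.35 TPM. Sox3, the X-linked SOXB1 gene, fell from 49.0, 52.99 and 63.7 TPM to 11.3, 10.4 and 6.53 TPM. Sox1 was at 3.78, 2.23 and 1.22 TPM and 0.76, 1.26 and 0.29 TPM, and its call (log2 fold change -1.70) was lost without SOX2-ON replicate 1, SOX2-ON replicate 3 or EpiLC replicate 1, with adjusted p up to 0.135 in edgeR's test.

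Nodal pathway genes were higher for 8 and lower for 3 of 13 tested members, with a median of 2.74, or 2.15 with the chromosome shift removed. The ligand gene Nodal rose from 0.75, 1.17 and 0.29 TPM to 17.5, 14.2 and 10.9 TPM, and its co-receptor gene Tdgf1 (also called Cripto) from 0.72, 1.06 and 0.72 TPM to 13.8, 16.5 and 8.19 TPM. The antagonist Lefty1 was at 0.94, 0.47 and 0.29 TPM in EpiLC and 19.4, 22.0 and 3.94 TPM in SOX2-ON, where replicate 3 was far below the other two. The feedback inhibitor Smad7 rose by 3.83 on the log2 scale, and the ligand Gdf3, on chromosome 6, by 2.74, or 2.15 with the shift removed. The nuclear partner Foxh1 fell by 0.77, and the receptor gene Acvr2b by 0.43.

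In the BMP pathway 8 of 12 tested genes were higher and 1 lower, with a median of 1.74. Bmp7 rose from 2.74, 3.73 and 2.94 TPM to 23.9, 23.4 and 23.5 TPM and Bmp2 from 0.45, 0.26 and 0.25 TPM to 5.39, 3.87 and 10.4 TPM. Msx1 and Msx2, homeobox genes that answer to BMP, rose by 4.27 and 3.90 on the log2 scale. The immediate targets Id1 (33.0, 36.1 and 21.9 TPM in EpiLC, 27.3, 24.8 and 57.8 TPM in SOX2-ON) and Id3 (92.7, 79.1 and 85.2 and 88.5, 87.2 and 120.0 TPM) were not called, and Id4 rose by 3.03.

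FGF was present in both cultures at the same dose. In SOX2-ON 12 of 18 genes of the FGF-ERK response were higher and 1 lower, with a median of 0.89. Spred1, an inhibitor of RAS-ERK signalling, rose from 31.5, 28.4 and 32.2 TPM to 92.2, 97.8 and 108 TPM. Spry2 rose from 54.2, 45.4 and 63.6 TPM to 119, 117 and 176 TPM, and the ERK phosphatase gene Dusp6 from 71.2, 58.2 and 69.5 TPM to 144, 127 and 195 TPM. The immediate early gene Egr1 was at 50.5, 43.6 and 46.8 TPM and 58.6, 44.1 and 81.3 TPM and was not called, but it was called higher without SOX2-ON replicate 2 (log2 fold change 0.55). SOX2-ON replicate 3 held the highest SOX2-ON value for 13 of the 18 genes. Spred2, on chromosome 11, was the member called lower (-0.47) and was not called with the chromosome shift removed.

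Genes of extraembryonic and definitive endoderm formed the list with the highest median, 4.96, with 19 of 21 tested members called higher and 1 lower. Members nearly absent in EpiLC could pass the filter through another group, and could then scarcely be called lower. The direction of these calls and the rank of the median are therefore no independent result. Gata6, the GATA factor of primitive endoderm, was at 0.15, 0.22 and 0.55 TPM in EpiLC and 27.9, 33.2 and 69.7 TPM in SOX2-ON, a log2 fold change of 7.22 with an SE of 0.45 and an adjusted p of 4.5e-08 in edgeR's test. Cubn, which encodes the endocytic receptor cubilin of visceral endoderm, was at 0.14, 0.35 and 0.33 TPM and 24.0, 34.2 and 77.4 TPM. In both genes all SOX2-ON libraries were above all EpiLC libraries, and replicate 3 stood above replicates 1 and 2.

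Gata4 rose by 4.96 on the log2 scale, Sox17 by 6.29, Sox7 by 5.60, Srgn by 6.94 and the endocytic adaptor gene Dab2 by 2.76. The yolk sac genes Apoa1 and Afp were too low to be tested, with Apoa1 at 0, 0 and 0.35 TPM in EpiLC and 0, 0 and 0.28 TPM in SOX2-ON, and Afp at 0.05, 0 and 0 and 0, 0 and 0.17 TPM. Lrp2, whose product pairs with cubilin, was at 37.2, 33.0 and 19.9 TPM and 15.1, 25.2 and 39.0 TPM and was not called. Rbp4 was the member that fell, by 1.88.

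SOX2-ON replicate 3 was the highest SOX2-ON library for 21 of 21 tested endoderm genes. The summed level of the list was 59.4, 58.2 and 46.8 TPM in EpiLC and 230.2, 299.6 and 631 TPM in SOX2-ON, and 25.2 to 58.8 TPM in CEpiLC and 553 to 659 TPM in SOX2-OFF. Leaving out 1 library at a time left 16 to 19 members called higher. Of 14 genes of the basement membrane, which endoderm lays down in quantity, 9 were called higher and 1 lower, against 30.7% and 29.1% of all genes tested. A link between the lists was not tested. Col4a1, a chain of type IV collagen, was at 41.8, 42.1 and 49.3 TPM in EpiLC and 246, 293 and 599.8 TPM in SOX2-ON (log2 fold change 3.06), and the laminin gene Lama1 at 8.13, 5.97 and 7.19 and 52.4, 66.7 and 132 TPM. Sparc was at 218, 216 and 185 TPM and 174, 171 and 373 TPM, where only replicate 3 exceeded EpiLC, and it was not called. Sparc lies on chromosome 11 and was called higher (0.71) with the shift of that chromosome removed. The part of replicate 3 in these results was not tested beyond leaving it out.

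**Figure D4:**
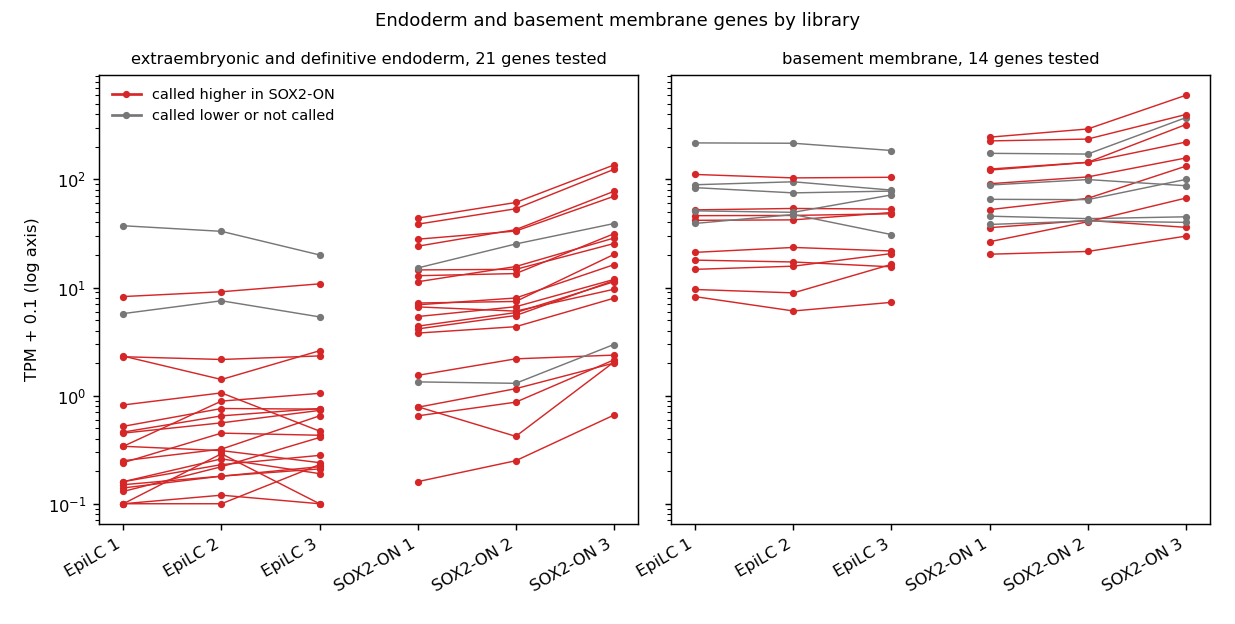
Level in TPM plus 0.1 on a log axis of the tested endoderm and basement membrane genes in each of the 6 libraries, with a line for each gene and red lines for genes called higher. The endoderm lines step up from EpiLC to SOX2-ON and are highest in SOX2-ON replicate 3 for 21 of 21 genes, and for 10 of 14 basement membrane genes.

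Of 9 genes of enzymes that set DNA methylation, 3 were higher and 3 lower, near the 30.7% and 29.1% of all genes tested. The de novo methyltransferase gene Dnmt3b was at 1196, 1365 and 1500.2 TPM in EpiLC and 242, 244 and 180.1 TPM in SOX2-ON (log2 fold change -2.64), and Dnmt3a fell by 0.95 on the log2 scale. Their cofactor gene Dnmt3l rose from 6.95, 6.41 and 5.97 TPM to 70.8, 69.4 and 98.2 TPM. All SOX2-ON values lay outside the EpiLC values for both Dnmt3b and Dnmt3l. The maintenance enzyme gene Dnmt1 was at 125, 124 and 123 TPM and 122, 131 and 115 TPM and was not called.

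Of 15 tested germline genes that DNA methylation is known to silence, 9 were higher and 3 lower, with a median of 1.11. This list, like the others, was chosen with earlier results of these data known, so its counts only describe its members. Tex13b (chrX:140808307-140813433) had 2, 0 and 0 counts in EpiLC and 554, 714 and 650 in SOX2-ON, a pooled ratio of 954 (95% counting interval 264 to 7884). Usp26 (chrX:51752667-51801233) went the other way, from 16.7, 17.2 and 11.1 TPM to 0.08, 0.16 and 0.03 TPM (log2 fold change -7.37). The means of CEpiLC and SOX2-OFF were 0 and 36.8 TPM for Tex13b, and 22.6 and 0.0433 TPM for Usp26. Ddx4, the germ cell helicase gene vasa, rose from 5.58, 5.37 and 5.42 TPM to 23.3, 22.5 and 23.0 TPM, and Dazl, which encodes a germ cell RNA-binding protein, by 2.46 on the log2 scale. Sycp3, a component of meiotic chromosome axes, fell from 81.7, 107 and 100.1 TPM to 15.7, 14.3 and 17.4 TPM. With a filter at a mean of 1 CPM, 4 of these genes were called higher.

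Imprinted genes, transcribed from 1 parental copy, were higher for 10 and lower for 10 of 28 tested members, against 30.7% and 29.1% of all genes tested. H19, the maternal non-coding RNA, was at 2.82, 2.21 and 5.23 TPM in EpiLC and 137, 123 and 184 TPM in SOX2-ON (log2 fold change 5.47). Peg10, on chromosome 6, rose from 104, 61.0 and 93.3 TPM to 1468, 1684 and 2129 TPM, and its log2 fold change of 4.32 became 3.73 with the chromosome shift removed. Grb10, on chromosome 11, fell from 148, 172 and 144 TPM to 28.4, 23.4 and 27.2 TPM, and its change of -2.59 became -2.06. Plagl1 rose by 2.85 on the log2 scale, while Cdkn1c fell by 2.63 and Magel2 by 3.38. Grb10 was at means of 134 TPM in CEpiLC and 12.6 TPM in SOX2-OFF, and H19 at 2.47 and 83.6 TPM.

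Genes of glucose use were split. The glucose transporter gene Slc2a1 fell from 1364, 1295 and 1259 TPM to 435, 371 and 329 TPM, whereas Slc2a3 rose from 239, 222 and 142 TPM to 1142, 1154 and 1286 TPM. Slc2a3 lies on chromosome 6 and its log2 fold change of 2.54 became 1.95 with the chromosome shift removed. Pdk1, the kinase that keeps pyruvate from the mitochondrion, rose from 24.4, 28.5 and 34.0 TPM to 141, 129 and 131 TPM, and the lactate exporter gene Slc16a3 fell by 1.27 on the log2 scale. In all, 11 of 23 glycolysis genes were higher and 5 lower, with 8 of the list on chromosomes 6, 8 and 11, and 8 and 6 with the shift removed. Nuclear genes of oxidative phosphorylation were lower for 34 and higher for 8 of 74, with a median of -0.17, and with the shift removed 38 were lower and 1 was higher.

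Of 21 tested genes of the integrated stress response, 12 were higher and 3 lower, with a median of 0.36. Asns, the asparagine synthetase gene on chromosome 6, rose from 154, 233 and 162 TPM to 964, 849 and 1114 TPM (log2 fold change 2.39, or 1.79 with the shift removed), and Atf4, the transcription factor of this response, by 0.55. Ddit3, its pro-apoptotic factor, fell by 0.51. Without EpiLC replicate 1, 6 members were called lower. Of 15 targets of p53, 10 were higher and 1 lower, with a median of 0.39. Cdkn1a, the cell-cycle inhibitor p21, rose from 66.4, 54.7 and 61.5 TPM to 233, 214 and 240.1 TPM, with means of 294 TPM in CEpiLC and 394 TPM in SOX2-OFF, and Mdm2, the ligase that limits p53, rose by 0.68.

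Beyond the lists, the largest rises by the rule for naming genes included the 3 Sprr2a genes, which encode small proline-rich proteins and are near-identical copies. Sprr2a3 was at 0 counts in EpiLC and at 10.0, 6.02 and 15.9 TPM in SOX2-ON, at least 20.9-fold higher, and how reads were split among Sprr2a1, Sprr2a2 and Sprr2a3 is uncertain. Eif3j1 had 0, 2 and 1 counts in EpiLC and 1, 50 and 717 in SOX2-ON, nearly all in replicate 3. It was not called without that library (adjusted p 0.153 in edgeR's test), and its reads may be shared with its near-identical copy, so that its value is uncertain too. Among the largest falls were the X-linked lymphocyte-regulated gene Xlr3b, which has near-identical copies and is uncertain for that reason (34.7, 32.1 and 23.2 TPM to 0.18, 0.38 and 0 TPM), Stmn4 of the stathmin family (-5.40 on the log2 scale), Tmem154 (-4.66) and the HMG-box gene Sox9 (-4.60).

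Other genes left EpiLC levels for the floor of 3 counts per library. Slc6a13, a GABA transporter gene, was at 5.45, 6.56 and 4.82 TPM in EpiLC and at 0 in all SOX2-ON libraries, at least 35.2-fold lower. The pooled ratios of EpiLC over SOX2-ON were 216 (95% counting interval 59.3 to 1786) for Lrp8os2 and 141 (95% counting interval 47.9 to 687) for Celf3. They were 102 (95% counting interval 43.4 to 315) for the antiviral gene Oas3 and 34.2 (95% counting interval 17.8 to 75.5) for Tceal6. Trh, the gene of thyrotropin-releasing hormone, lies outside the rule and was chosen after its values were seen. It was at 86.8, 25.5 and 96.3 TPM in EpiLC and 1262, 962 and 921 TPM in SOX2-ON (log2 fold change 3.90, adjusted p 8.46e-07 in edgeR's test), against means of 14.7 TPM in CEpiLC and 41 TPM in SOX2-OFF.

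The largest gains and losses of TPM fell largely on 3 chromosomes. Of the 8 called genes with the largest loss of mean TPM, 7 lie on chromosome 11 (Ppia, Actg1, Npm1, Rpl38, Rpl23a, Rpl19 and Rpl26), and Ptma lies on chromosome 1. Of the 8 with the largest gain, 4 lie on chromosome 6 (Rpl32, Gapdh, Tmsb10 and Peg10) and 2 on chromosome 8, among them Rpl13. Many of these genes have processed copies elsewhere in the genome, and how reads were split among them is uncertain. Ppia, a common reference gene for quantitative PCR, was at 9407, 9249 and 9448 TPM in EpiLC and 5945, 5989 and 5739 TPM in SOX2-ON. Rpl32 of the large ribosomal subunit was at 4059, 4036 and 4208 TPM and 6194, 6295 and 6299.8 TPM. With the median shift of its chromosome removed, the log2 fold change of Ppia went from -0.69 to -0.16, that of Rpl32 from 0.61 to 0.02 and that of Gapdh from 0.33 to -0.26. That of Rpl23a went from -0.46 to 0.06, and that of Rpl13 from 0.52 to -0.10.

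The shift itself was measured on well expressed genes, those averaging 4 log2 CPM or more, as the median of each library relative to the mean of the EpiLC libraries. SOX2-ON minus EpiLC was 0.60 on chromosome 6 (386 genes, 1.51-fold), 0.61 on chromosome 8 (482 genes, 1.52-fold) and -0.53 on chromosome 11 (699 genes, 0.691-fold). The SDs between libraries of a group were between 0.0095 and 0.017 on these chromosomes. A two-sided exact permutation test gave p = 0.1 for each, the smallest that 3 libraries against 3 allow, or 0.222 after Benjamini-Hochberg adjustment over 20 chromosomes. The other autosomes differed by -0.06 to 0.06, and chromosome X by 0.12.

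The shift ran along each whole chromosome. In 8 bins of gene order the difference was 0.50 to 0.66 on chromosome 6, 0.49 to 0.69 on chromosome 8 and -0.59 to -0.44 on chromosome 11, against -0.12 to 0.08 on chromosome 5. Of the genes on chromosome 6 in this set 85.5% were called higher, as were 87.1% on chromosome 8, and 80.1% on chromosome 11 were called lower. Of all tested genes on the 3 chromosomes 1998 were called, and 860 of these were not called once the shift was removed. Among all other tested genes, including any with no chromosome assigned, 6485 of 11637 (55.7%) were called. A chromosome-wide shift was present in SOX2-ON in all 3 libraries, and its part in the changes of genes on other chromosomes was not tested.

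**Figure D5:**
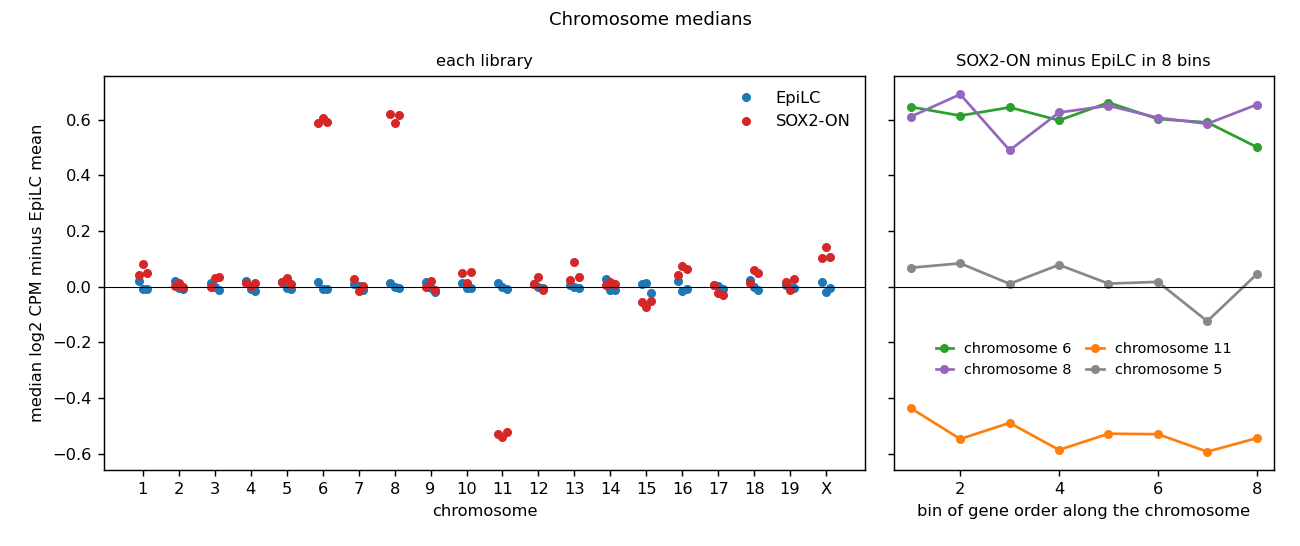
Left, median log2 deviation from the EpiLC mean of genes of each chromosome (horizontal axis) in each of the 6 libraries. Right, SOX2-ON minus EpiLC in 8 bins of gene order along chromosomes 6, 8, 11 and 5. The 3 SOX2-ON libraries sit near 0.60 on chromosomes 6 and 8 and near -0.53 on chromosome 11, and the bins of chromosome 5 lie around 0.

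Markers of other cells that the cultures could hold gave no uniform direction. Of 14 fibroblast genes, which the feeder cells express, 3 were higher and 4 lower, and their summed level was 131, 159 and 251 TPM in EpiLC and 79.8, 54.8 and 38.5 TPM in SOX2-ON. Tagln, an actin-associated gene of smooth muscle and fibroblasts, fell from 64.5, 80.4 and 119.7 TPM in EpiLC to 14.2, 12.5 and 7.05 TPM in SOX2-ON, and the smooth muscle actin gene Acta2 from 19.7, 23.4 and 66.7 TPM to 3.13, 2.13 and 0.79 TPM. The 3 members called higher were Cyp1b1, from 0.34, 0.68 and 0.48 TPM to 2.66, 2.81 and 2.27 TPM, Lum, a pooled ratio of 43.8 (95% counting interval 7.46 to 1768), and Dcn, which encodes the proteoglycan decorin, with a log2 fold change of 0.82. Dcn was not called without SOX2-ON replicate 1 or 2 or without any 1 of the EpiLC replicates, with adjusted p from 0.0524 to 0.1 in edgeR's test. The collagen gene Col3a1, a defining fibroblast marker, was at 2.25, 3.06 and 6.78 TPM and 4.37, 2.5 and 1.59 TPM and was not called. Among 4 genes of the Y chromosome, 1 was higher (Uty, log2 fold change 0.79) and 2 were lower. None of the 11 genes of the two-cell-like state that are in the table was tested, all being too low for the filter.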

How the data were processed

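RNA-seq of polyA RNA was deposited as 1 table of RSEM expected counts and TPM for each gene and library. Per the submitters' processing notes, the authors used cutadapt 1.16, STAR 2.5.2a, RSEM 1.3.0 and DESeq2 1.16.1 with genome build mm10. TPM values were printed as deposited and are relative to each library's total. Expected counts, which the authors had estimated per gene, were rounded to whole numbers. Genes were filtered by filterByExpr over the 4 groups, scaled by TMM and tested with edgeR 4.0.16 (R 4.3.3, quasi-likelihood test, Benjamini-Hochberg adjustment over all genes tested) in a model of all 12 libraries, and genes with an adjusted p of 0.05 or less were called. DESeq2 1.42.0 and limma 3.58.1 served as alternatives, and the steps were tested on simulated data.

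Chromosome shifts were medians over genes of log2 CPM, and were removed with offsets per library. Intervals and the floor of 3 counts cover counting error only. Members and gene lists were chosen with earlier results of these data known. Genes were named if they were Sox2, Hprt, Sp5, Skida1, Otx2 or Nr5a2, members of the lists, among the 10 largest separated changes in either direction with 2 or more mean log2 CPM, among the 8 largest gains or losses of TPM, or among the 5 largest folds against the floor. Lists were described by counts and medians without a set test. A few genes that the rule names are not reported here.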

Additional observations from a re-analysis of the deposited data

How the results depend on the processing

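The number of genes called lay between 7689 and 8837 over the alternatives at the same threshold and was 6691 at a threshold of 0.01. Tried were RLE scaling, scaling by library size, 2 other filters on low counts, the 6 libraries alone, DESeq2, limma-voom, the precursor ribosomal RNA left out, the median shift of chromosomes removed, the replicate number as a block, and each library left out in turn. Sox2 was not called with a log2 fold change of 0.42, but was called with the 6 libraries alone (0.42, adjusted p 0.0329), with limma-voom (0.43, adjusted p 0.0286) and with the replicate block (0.44, adjusted p 0.000248). With 1 library left out it ran from 0.29 to 0.63 and was called in edgeR's test without EpiLC replicate 1 alone, the other adjusted p running from 0.0679 to 0.249. The cause was not tested.

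The difference of chromosome 6 moved from 0.60 to 0.57 when genes from a mean of 2 log2 CPM were used, and ran from 0.59 to 0.61 with 1 library left out. That of chromosome 11 moved from -0.53 to -0.54 with library size scaling. With the chromosome shift removed the sign turned for Cdh1 (-0.59), Gapdh (-0.26), Rnf43 (0.50), Rpl13 (-0.10), Rpl23a (0.064), Spred2 (0.060) and Tcf7 (0.33), and Klf2, Msmo1, Npm1, Rpl19, Rpl32 and Tmsb10 were no longer called. With 1 library left out, genes that were not called crossed 0. Cdh1 ran from -0.0051 to 0.041, Col3a1 from -0.99 to 0.063, Dnmt1 from -0.081 to 0.017, Id1 from -0.24 to 0.45, Lrp2 from -0.61 to 0.043, Rnf43 from -0.22 to 0.12, Sparc from -0.27 to 0.38 and Tbx6 from -0.33 to 0.099. The 60 list counts had 1020 values under the alternatives, of which 976 were within 1.5 times the count given.

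Replicate numbers were not taken to pair the libraries, since deviations of same-numbered libraries correlated at 0.054, 0.059 and 0.099, although each SOX2-ON library correlated best with the EpiLC library of its own number. The replicate block gave 8837 called genes. Each value rests on 3 libraries per group, and genes with a few counts in one group are limited by that depth.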

Other observations

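Genes of epithelia, sterol synthesis and trophoblast were not described above. Of 19 tested genes of cadherins and epithelial-to-mesenchymal transition, 3 were called higher and 4 lower, with a median log2 fold change of 0.13. Cdh1, the cadherin of epithelia, was at 395, 424 and 424 TPM in EpiLC and 429, 423 and 436 TPM in SOX2-ON and was not called. It lies on chromosome 8, and with the shift of that chromosome removed it was called lower at -0.59. Cdh3 rose from 10.3, 14.5 and 15.7 TPM to 63.1, 64.4 and 57.8 TPM, a log2 fold change of 2.17 (1.56 with the shift of chromosome 8 removed), and Epcam fell by 0.67.

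Of 19 genes of cholesterol synthesis and uptake, 6 were higher and 0 lower, against 30.7% and 29.1% of all genes tested, with a median of 0.21. Without EpiLC replicate 3 the number called higher was 10. The largest of these rises were those of Mvd and Msmo1, both on chromosome 8, and Msmo1 was not called with the chromosome shift removed (0.33). Of 7 tested genes of the trophoblast list, 4 were higher and 0 lower, among them Cdx2 and Eomes, which are counted above as well. Tead4 rose by 2.79 on the log2 scale. Tfap2c, an AP-2 factor that is also active in germ cell precursors, rose from 1.05, 0.62 and 0.8 TPM to 26.0, 25.7 and 41.5 TPM, with means of 2.55 TPM in CEpiLC and 3.6 TPM in SOX2-OFF, while Krt7 was at 1.68, 3.75 and 4.90 and 3.11, 2.10 and 1.98 TPM and was not called.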
